A study of Mus musculus with 2 samples.

Results

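The fibrillar collagen genes considered here were Col1a1, Col1a2, Col3a1, Col5a1, Col5a2, Col5a3, Col11a1 and Col27a1, measured with ATAC-seq for the openness of their chromatin in primary murine cardiac fibroblasts. A peak was taken as belonging to 1 of these 8 genes when the deposited table placed it in or at the gene, or, for an intergenic peak, when the nearest transcription start site (TSS) was that of the gene. This rule gave 114 of the 63316 peaks in the table, of which 46 lay in or at the genes and 68 were intergenic. The rule itself uses no measured value, but the genes were picked with earlier results of these data known. In ATAC-seq a transposase places adapters into open DNA, so that more reads over a region mean a more open region.

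There were 2 libraries, with 1 per condition. Both came from fibroblasts isolated from the mouse heart and exposed to TGF-β at 5 ng/ml for 24 h, a cytokine that turns fibroblasts into matrix-producing myofibroblasts. Before TGF-β the cells had received scrambled siRNA (SCR, labelled NC) or siRNA against Piezo2 (siPiezo2), which encodes a stretch-gated ion channel, so no library shows the cells without TGF-β. An siRNA lowers a transcript and leaves its gene in place, and no Piezo2 transcript was measured in these libraries. The text submitted for the series names a Cre-induced knockout of Tet3 in place of the siRNA, and the methods and the labels name different ATAC-seq kits and different starting material. Neither difference could be settled, so the groups rest on the labels and the study's description of this experiment. The labels name the assembly mm10, but the table's positions are not those of that build. Of the 8 main transcripts, 7 lie elsewhere in GRCm38 (all but that of Col1a2), while 8 of 8 have the same length there. Positions of peaks were taken as GRCm39.

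Fibrillar collagens are the rope-forming proteins of connective tissue. Their chains wind into a helix, are secreted with end pieces that proteases remove, and then pack side by side into banded fibrils that are crosslinked. Type I and type III collagen make up most fibrils of the heart and of cardiac scars, type V and type XI collagen sit inside such fibrils and start their assembly, and type XXVII collagen is best known from cartilage.

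With 1 library per condition no difference here has a replicate check and no test of the conditions was possible. Each ratio is log2((siPiezo2 + 1)/(SCR + 1)) of the normalized read density, in reads per kb of a window of 2000 bp around the peak's summit. The whole reads behind the densities came to 4615335 in SCR and 2754046 in siPiezo2 over all windows, with a median of 58 and 36 per window. The 95% exact binomial (Clopper-Pearson) interval given with a ratio covers counting error only. Peaks called in both libraries varied 2.08 times as much as counting error allows by a median-based estimate, and 4.71 times by the plain mean. Of 12 fibroblast marker genes, 10 had a peak within 1 kb of a TSS (all but Lum and Thy1), against 1 of 6 endothelial (Tek), 1 of 6 cardiomyocyte (Actn2), 2 of 6 mural (Myh11 and Notch3) and 0 of 6 macrophage markers. Over the 10 fibroblast markers other than Col1a1 and Col1a2, promoter density per gene was 48.0 in SCR, against 46.95 in siPiezo2. Per mural marker it was 8.45 and 6.11, per endothelial marker 4.30 and 4.68, and per cardiomyocyte marker 2.57 and 2.82. Whether a shift in the make-up of the cultures had a part in the values that follow was not tested.

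Sequences for 6 of the 8 promoters were found in RefSeq (assembly GRCm38.p6), and Col1a1 and Col5a2 were not among them. The 250 bases before the RefSeq start of 5 genes are shown because a peak lies over each of them and because the peaks differed in their ratio, from -0.025 at Col5a3 to -0.80 at Col11a1. Letters in capitals mark matches, on either strand, to the CCAAT box (CCAAT), the GC box (GGGCGG), the AP-1 motif (TGANTCA), the TEAD motif (GGAATG), the SMAD motif (CAGACA) or the CArG box bound by SRF. No match of one motif overlapped a match of another in these sequences.
Col1a2 promoter, chr6:4505368-4505617, + strand: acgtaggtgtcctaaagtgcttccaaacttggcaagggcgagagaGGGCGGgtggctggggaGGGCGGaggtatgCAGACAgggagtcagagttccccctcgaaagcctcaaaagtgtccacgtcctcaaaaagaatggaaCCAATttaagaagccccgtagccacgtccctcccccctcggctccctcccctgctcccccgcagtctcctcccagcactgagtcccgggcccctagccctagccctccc
Col3a1 promoter, chr1:45311288-45311537, + strand: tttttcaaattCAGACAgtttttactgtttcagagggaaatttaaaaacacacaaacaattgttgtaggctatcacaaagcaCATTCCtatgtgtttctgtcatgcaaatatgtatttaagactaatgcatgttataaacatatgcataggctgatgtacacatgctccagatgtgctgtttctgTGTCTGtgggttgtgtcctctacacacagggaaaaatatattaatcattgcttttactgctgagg
Col5a1 promoter, chr2:27886175-27886424, + strand: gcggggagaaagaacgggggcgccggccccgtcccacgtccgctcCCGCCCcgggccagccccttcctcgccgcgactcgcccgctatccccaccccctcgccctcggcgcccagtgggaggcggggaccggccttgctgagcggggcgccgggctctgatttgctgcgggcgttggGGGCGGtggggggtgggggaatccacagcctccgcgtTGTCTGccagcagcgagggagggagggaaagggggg
Col5a3 promoter, chr9:20815068-20815317, - strand: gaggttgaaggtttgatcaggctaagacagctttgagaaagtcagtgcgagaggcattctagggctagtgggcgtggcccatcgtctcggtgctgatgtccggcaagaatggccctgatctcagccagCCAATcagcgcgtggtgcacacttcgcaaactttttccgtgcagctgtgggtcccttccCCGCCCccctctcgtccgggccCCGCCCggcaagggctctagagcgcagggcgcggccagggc
Col11a1 promoter, chr3:114030290-114030539, + strand: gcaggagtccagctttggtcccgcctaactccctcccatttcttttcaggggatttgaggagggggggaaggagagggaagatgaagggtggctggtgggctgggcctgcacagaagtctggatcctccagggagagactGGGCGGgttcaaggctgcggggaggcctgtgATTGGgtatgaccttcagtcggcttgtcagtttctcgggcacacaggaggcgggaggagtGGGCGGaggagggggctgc
The GC box was found in 5 of the 6 member promoters against 32.7% of 32851 promoters of the same length. The CCAAT box was found in 3 of 6 (33.8% of all promoters), at bases -109, -122 and -79 from the RefSeq start of Col1a2, Col5a3 and Col11a1. The SMAD motif was found in 3 of 6 (17.1% of all), with 2 matches in the Col3a1 promoter and 1 each in those of Col1a2 and Col5a1. The TEAD motif was found only in Col3a1 among the 6 (12.6% of all). Neither AP-1 (6.75% of all) nor CArG (1.47% of all) was matched in any of the 6. The Col3a1 promoter had a GC content of 35.2% and the Col5a1 promoter 76.4%, where the median over all promoters was 52.4%. The rest of the 6 lay above that median, from 59.6% at Col27a1 to 62.8% at Col5a3. The share of all promoters with a GC box was not matched for GC content. The peaks at the start of Col1a2 and Col11a1 spanned all 250 bases shown, those of Col5a3 and Col5a1 spanned 225 and 220, and that of Col3a1 spanned 86. The RefSeq start of Col1a2 lies 125 bp inside the transcript used to place its peaks, and for the other 4 genes both starts were the same.

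Density over the fibrillar collagen peaks was on balance lower in siPiezo2 than in SCR, with a median closer to 0 over the peaks called in both libraries. The densities of the 114 peaks summed to 3770 in SCR, against 2938 in siPiezo2 (9246 and 4609 reads), a log2 ratio of -0.36 (-0.41 to -0.31). Of the 114 peaks, 95 (83.3%) had a ratio below 0, where 63.7% of all peaks did. Their median was -0.34, against -0.13 over all 63316 peaks. Past 1.5-fold, 38 member peaks (33.3%) were lower, where 14.2% of all peaks were, and 0 were higher, where 3.21% of all peaks were. Of the 38, 34 had been called in SCR only, as had 7761 of the 9000 peaks lower past 1.5-fold among all peaks. Such peaks entered the table through the library in which they are high. Among the 36 member peaks called in both libraries 4 were lower past 1.5-fold, and the median was -0.12. The counting interval lay below 0 for 30 member peaks (11.4% of all peaks) and above 0 for 2 (3.63% of all peaks). The 2 were intronic peaks of Col5a1 and Col27a1.

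**Figure D1:**
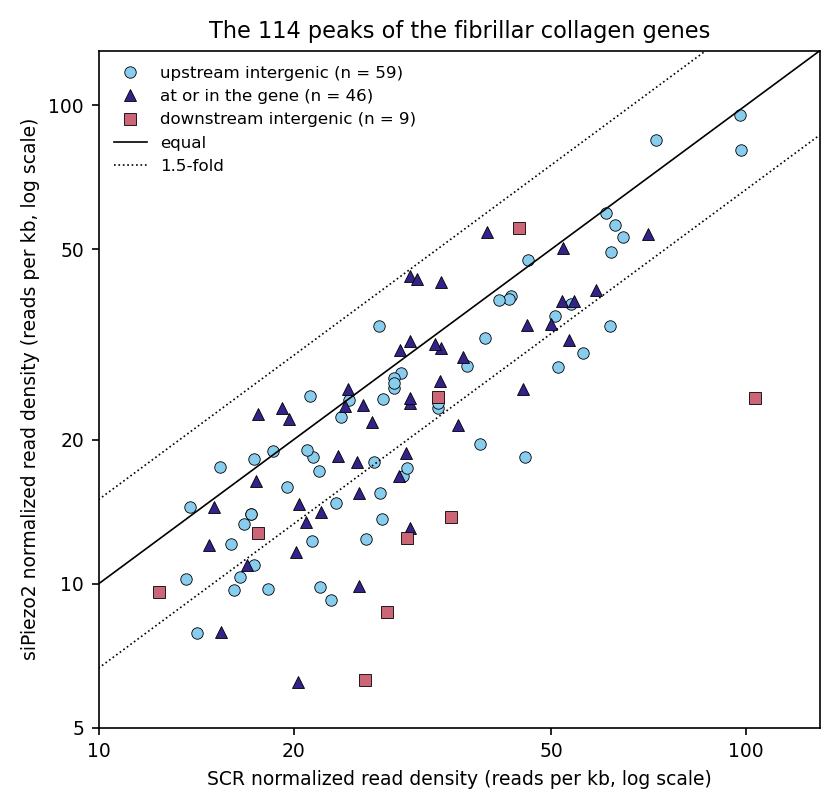
Each point is 1 of the 114 peaks, with its normalized read density in SCR (x axis) and in siPiezo2 (y axis), both in reads per kb on log scales, and the shape gives its place. Most points lie under the line of equal density, 38 lie under the lower 1.5-fold line and 0 above the upper one, and the square far to the right is the peak past the 3′ end of Col1a1 (103 in SCR and 24.5 in siPiezo2).

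The 8 genes differed in how far their summed density lay below SCR. Col11a1 had a ratio of -0.57 (-0.77 to -0.36), with 12 peaks that summed to 267 in SCR and to 179.8 in siPiezo2, and with whole reads at the same total it had -0.35, where Col1a1 was the lowest gene at -0.55. Col1a1 had -0.55 (-0.67 to -0.44), with 16 peaks and 854 against 583. Col5a2 had -0.45 (-0.59 to -0.30), with 17 peaks and 477 against 350.0. These were the genes with the lowest ratios, and their intervals overlap one another.

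Col1a2 had a ratio of -0.44 (-0.58 to -0.31), with 17 peaks and 581 against 427. Col3a1 had -0.36 (-0.53 to -0.18), with 15 peaks and 341 against 267, but its ratio was -0.16 with whole reads at the same total and -0.032 over those of its peaks that are in the strongest 50% of all peaks. The genes of both chains of type I collagen and that of type III collagen thus overlapped in their intervals as well. Col27a1 had -0.18 (-0.34 to -0.033), with 13 peaks and 399.9 against 352. Its ratio was -0.059 with whole reads at the same total and -0.046 with the libraries scaled by the median of ratios. It was -0.036 over its peaks in the strongest 50% of all peaks. Col5a1 had -0.12 (-0.24 to -0.013), with 20 peaks and 724 against 664, and Col5a3 had -0.11 (-0.38 to 0.16), with 4 peaks and 125 against 116. The counting intervals of Col1a1 and Col5a1 do not overlap, although both genes carried many strong peaks. Over peaks called in both libraries the ratios were closer to each other, at -0.20 for Col1a1 and 3.22e-05 for Col5a1.

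In 7 of the 8 genes the interval lay below 0, as it did in 18.0% of the 20187 genes with a peak. That share depends on how many peaks a gene has: among the 975 genes with 10 or more peaks it was 53.2%, and among the members with 10 or more peaks it was 7 of 7. The median ratio over all genes was -0.11, and 5 members (Col11a1, Col1a1, Col5a2, Col1a2 and Col3a1) had an interval wholly below it. With intervals widened by 1.44, the square root of the median-based extra variance, 5 of the 8 lay below 0 and 4 lay below the median of all genes. Widened by 2.17, from the plain mean, 4 of the 8 lay below 0 (Col1a1, Col1a2, Col5a2 and Col11a1). The share of all genes was not computed for widened intervals or for intervals below the median of all genes. These counts of members therefore have no background to be read against. Among genes with 10 or more peaks, Col11a1 and Col1a1 stood at percentiles 1.64 and 1.95 from the lowest ratio, Col5a2 and Col1a2 at 6.15 and 6.26, Col3a1 at 14.3, Col27a1 at 45.8 and Col5a1 at 60.9. Scaling the libraries by the median of ratios shifted every log2 ratio up by 0.14 and left 6 genes below 0 while Col5a1 (0.015) and Col5a3 (0.031) came out above it.

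**Figure D2:**
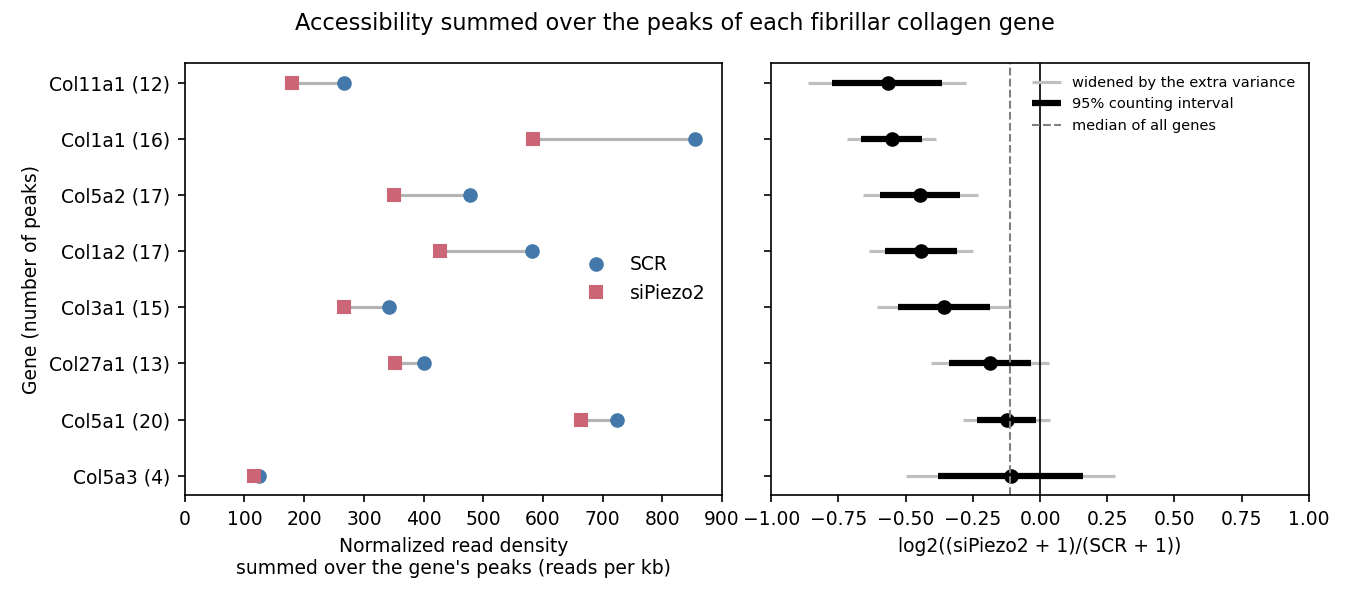
For each gene, the left panel shows the normalized read density summed over its peaks (reads per kb) in SCR and siPiezo2, and the right panel the log2 ratio with its 95% counting interval (black) and that interval widened by the median-based extra variance (grey). The ratios run from -0.57 at Col11a1 to -0.11 at Col5a3, and the dashed line is the median of all genes at -0.11; with median-of-ratios scaling Col5a1 and Col5a3 turn to values above 0.

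Because windows of nearby peaks overlap, some reads are counted more than once. Leaving out the 20 member peaks whose window overlaps the one kept before it left 94 peaks, and the ratio of Col1a1 became -0.65 (-0.80 to -0.51) and that of Col5a2 -0.55 (-0.73 to -0.37). The number of genes with an interval below 0 stayed at 7. The genes also differed in how open they were per peak. The mean density per peak in SCR was 53.4 for Col1a1, 36.2 for Col5a1, 34.2 for Col1a2, 31.3 for Col5a3, 30.8 for Col27a1, 28.1 for Col5a2, 22.8 for Col3a1 and 22.2 for Col11a1. No replicate spread exists to say which neighbours in this order differ. Col1a1 and Col11a1, at opposite ends of this order, were the genes with the lowest ratios over all their peaks. Without intergenic peaks Col5a2 was the lowest at -0.68, with Col11a1 at -0.59, Col1a2 at -0.50 and Col1a1 at -0.44.

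Col1a1 encodes the chain that makes up most of type I collagen. In a 16.8 kb gene body it had 2 peaks, both within 1 kb of the TSS and both lower in siPiezo2. The peak over the TSS (chr11:94826917-94827273, 5′ UTR class) had 58.7 in SCR and 41.2 in siPiezo2 (150 and 63 reads), a ratio of -0.50 (-0.95 to -0.066). The first-intron peak 0.772 kb inside had 70.5 and 53.8, a ratio of -0.38 (-0.78 to 0.0021). It was the only member peak called in siPiezo2 alone, although its density was lower there.

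Upstream of Col1a1 the 13 peaks fell into stretches with unlike ratios, and these stretches were set after the values were seen. From 63.1 to 53.4 kb before the TSS, 5 peaks of 5 were lower past 1.5-fold, with ratios between -1.26 and -0.83 and sums of 219 in SCR and 110.4 in siPiezo2. From 22.3 to 7.26 kb before the TSS, 6 peaks had ratios between -0.28 and 0.34 and sums of 324 and 304, and 0 of them passed 1.5-fold. Within this nearer stretch lay the strongest peak of the gene by mean density over both libraries (the measure behind strength throughout), 8.03 kb before the TSS, with 97.8 in SCR and 95.6 in siPiezo2 (ratio -0.033), and the highest ratio of the gene, 0.34 (27.1 and 34.6). A further peak 2.43 kb before the TSS had 61.7 and 34.6, a ratio of -0.82 (-1.30 to -0.36). With separate windows only, the far stretch had a ratio of -0.90 (-1.32 to -0.50) from 2 windows and the nearer one -0.20 (-0.42 to 0.020) from 4. The stretches also differed in the peak call. Apart from the peak 63.1 kb before the TSS, called in both libraries (ratio -0.86), the far peaks were called in SCR only. Most of the nearer ones were called in both. The ratios over the upstream flank of Col1a1 were thus not uniform, and the part of the peak call in this was not tested.

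The lowest ratio among the 114 peaks lay past the 3′ end of Col1a1. That intergenic peak (chr11:94846030-94846284), 2.29 kb beyond the gene, had 103 in SCR, the highest SCR density of any member peak, and 24.5 in siPiezo2. With 265 and 37 reads its ratio was -2.03 (-2.57 to -1.53), which ranks 14 from the lowest of all 63316 peaks. The next peak (chr11:94848427-94849387), 5.04 kb beyond the gene and 2.75 kb from the first, is given by the table to Hils1, and it had 133 and 47.6 (355 and 70 reads) and a ratio of -1.46 (-1.85 to -1.08). The peaks that follow, given to Sgca, had ratios of 0.066 and 0.0077. Without its lowest peak, the summed ratio of Col1a1 was -0.43, an alternative chosen after the data were seen.

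Col1a2 encodes the other chain of type I collagen. Its peak over the TSS (chr6:4505328-4505829, 5′ UTR class) had 45.9 in SCR and 34.8 in siPiezo2 (115 and 54 reads), a ratio of -0.39 (-0.88 to 0.088). The exonic peak 25.6 kb inside the gene, which lies 0.986 kb from another start site of the gene, had 30.3 and 23.8, a ratio of -0.33 (-0.94 to 0.25). Both ratios were below 0, and both intervals included 0 at this depth. Of the 10 upstream peaks, 1 was lower past 1.5-fold, and the strongest, 15.9 kb before the TSS, had 64.7 and 52.9 (ratio -0.28). The highest ratio among its stronger peaks was 0.042, 86.3 kb before the TSS (46.0 and 47.4).

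Past the 3′ end Col1a2 resembled Col1a1 in the direction of its values. All 3 downstream peaks, between 1.02 and 16.3 kb beyond the gene, were lower past 1.5-fold, and all 3 were called in SCR only, as was the peak past the 3′ end of Col1a1. The first (chr6:4542461-4542661) had 34.99 in SCR and 13.8 in siPiezo2, a ratio of -1.28 (-2.03 to -0.59). The second, whose window overlaps that of the first, had 29.9 and 12.5 (ratio -1.20), and the third had 27.9 and 8.74 (ratio -1.57). Summed, the 3 peaks had a ratio of -1.38, against -0.25 for the 10 upstream peaks and -0.50 for the 4 in or at the gene.

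Col3a1 encodes the single chain of type III collagen, which is laid down with type I collagen in healing tissue. Its TSS peak (chr1:45350612-45350939) had 26.5 in SCR and 21.8 in siPiezo2 (63 and 35 reads), a ratio of -0.27 (-0.91 to 0.35). Of its 10 upstream peaks 3 were lower past 1.5-fold, with a summed density of 186 and 140.6 and a ratio of -0.40 (-0.64 to -0.17). Most of these upstream peaks were weak, and 9 of 10 were called in SCR only.

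Col3a1 and Col5a2 lie tail to tail, and the 24.6 kb between their 3′ ends held 3 peaks that the table gives to Col3a1. The first of these, 6.42 kb past Col3a1 (chr1:45395072-45395509), was the strongest peak of the gene, with 44.6 in SCR and 55.4 in siPiezo2 and a ratio of 0.31 (-0.12 to 0.72). The second had 33.4 and 24.6, a ratio of -0.43 (-1.02 to 0.14). The third (chr1:45402525-45402744), which was singled out after its values were seen, had 25.8 and 6.30 (58 and 10 reads), a ratio of -1.88 (-3.01 to -0.89) and rank 23 from the lowest of all peaks. It lies 13.8 kb past Col3a1 and 10.8 kb past Col5a2, so these data do not tie it to either gene. Peaks a few kb apart in this stretch thus had ratios on both sides of 0.

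Col5a1, Col5a2 and Col5a3 encode chains of type V collagen, which starts fibrils and limits their width, and their ratios were spread across the range of the 8 genes. Col5a2 had 9 peaks in or at the gene, all with ratios below 0 and 5 lower past 1.5-fold. Of all peaks in or at genes, 62.6% were below 0 and 12.8% were lower past 1.5-fold. The 9 summed to 212 in SCR and to 132 in siPiezo2 (ratio -0.68). All but the TSS peak and an intronic peak 71.2 kb inside (ratio -0.32) were called in SCR only. Over its peaks called in both libraries, the ratio of Col5a2 was -0.30. Its TSS peak (chr1:45542018-45542501) had 53.2 and 32.3 (134 and 50 reads), a ratio of -0.70 (-1.20 to -0.22). Its strongest peak, 124 kb before the TSS, had 60.7 and 59.6, a ratio of -0.026, which was also the highest ratio among its stronger peaks. The lowest of its stronger peaks lay 77.4 kb before the TSS, with 29.9 and 17.5 (ratio -0.74). An intronic peak 74.4 kb inside the gene, singled out after its values were seen, had 20.3 and 6.23 (45 and 10 reads) and a ratio of -1.56 (-2.71 to -0.55).

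Col5a1 had the most peaks of the 8 genes, and 14 of 20 had ratios below 0. Its TSS peak (chr2:27776217-27776478) had 52.1 in SCR and 39.0 in siPiezo2 (132 and 60 reads), a ratio of -0.41 (-0.87 to 0.042). The 9 peaks in or at the gene had a summed density of 312 and 304 and a ratio of -0.040, and 4 of the intronic ones were above 0. Of these, the peak 5.92 kb inside the gene (chr2:27782239-27782471) had 30.3 and 43.9 (75 and 69 reads), a ratio of 0.52 (0.028 to 1.01), the highest among the 114 peaks. The lowest of its stronger peaks, 19.2 kb inside, had 35.9 and 21.4 (ratio -0.72). The strongest peak, 27.8 kb before the TSS, had 72.7 and 84.5, a ratio of 0.21 (-0.12 to 0.54). Within 1 gene, then, the TSS peak was lower while intronic and upstream peaks lay on both sides of 0.

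Col5a3 had 4 peaks, and all were in or at the gene. Its TSS peak (chr9:20726284-20726588) had 23.996 in SCR and 23.6 in siPiezo2 (57 and 38 reads), a ratio of -0.025 (-0.66 to 0.59). Its strongest and lowest peak, in an intron 20.7 kb inside, had 54.3 and 39.0, a ratio of -0.47 (-0.93 to -0.019). The highest ratio among its stronger peaks was 0.076 (29.2 and 30.8). Without the intronic peak of 20.7 kb the summed ratio of Col5a3 was 0.12, so the direction of its sum rests on that peak.

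Col11a1, which encodes a chain of type XI collagen, was the gene with all of its peaks below 0, 12 of 12, and 6 of them were lower past 1.5-fold. The peak over its TSS (chr3:113823814-113824285, promoter class) was its strongest and its lowest, with 45.3 in SCR and 25.6 in siPiezo2 (112 and 40 reads) and a ratio of -0.80 (-1.36 to -0.27). This was the lowest ratio among the peaks at a member's TSS. The highest ratio among its stronger peaks was -0.47, 77.2 kb before the TSS (33.4 and 23.9). Its 7 upstream peaks had ratios between -0.78 and -0.28, its 3 peaks in or at the gene between -0.80 and -0.054, and its 2 downstream peaks -0.44 and -0.34. Its ratios spanned a narrower range than those of Col1a1 (-2.03 to 0.34) or Col3a1 (-1.88 to 0.31). Of the 12 peaks 10 were called in SCR only, and the 12 held between 27 and 112 reads in SCR.

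Col27a1 encodes the chain of type XXVII collagen, and its 13 peaks all lay inside the gene. The peak nearest to its TSS, 0.792 kb inside the first intron, had 30.3 in SCR and 24.5 in siPiezo2 (73 and 39 reads), a ratio of -0.30 (-0.90 to 0.28). A second peak within 1 kb of a start site, 18.8 kb inside (chr4:63152343-63152592, promoter class), had 29.1 and 16.8, a ratio of -0.76 (-1.46 to -0.098). The 8 peaks in the first 63.6 kb all had ratios below 0, between -1.15 and -0.11, with a summed density of 257 and 187 (ratio -0.45). Of the 5 peaks from 75.9 to 108 kb, 4 were above 0, and their summed density was 143 and 164 (ratio 0.20). This split was made after the values were seen, and it largely runs along the peak call. The 4 above 0 were called in both libraries and the 1 below 0 in SCR only, as were 7 of the 8 in the first stretch. Over its peaks called in both, the ratio of Col27a1 was 0.12. The strongest peak by mean density, 101 kb inside, had 39.8 and 54.5, a ratio of 0.44 (0.0073 to 0.87), and the lowest of its stronger peaks, 63.6 kb inside, had 50.03 and 34.9 (ratio -0.51).

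**Figure D3:**
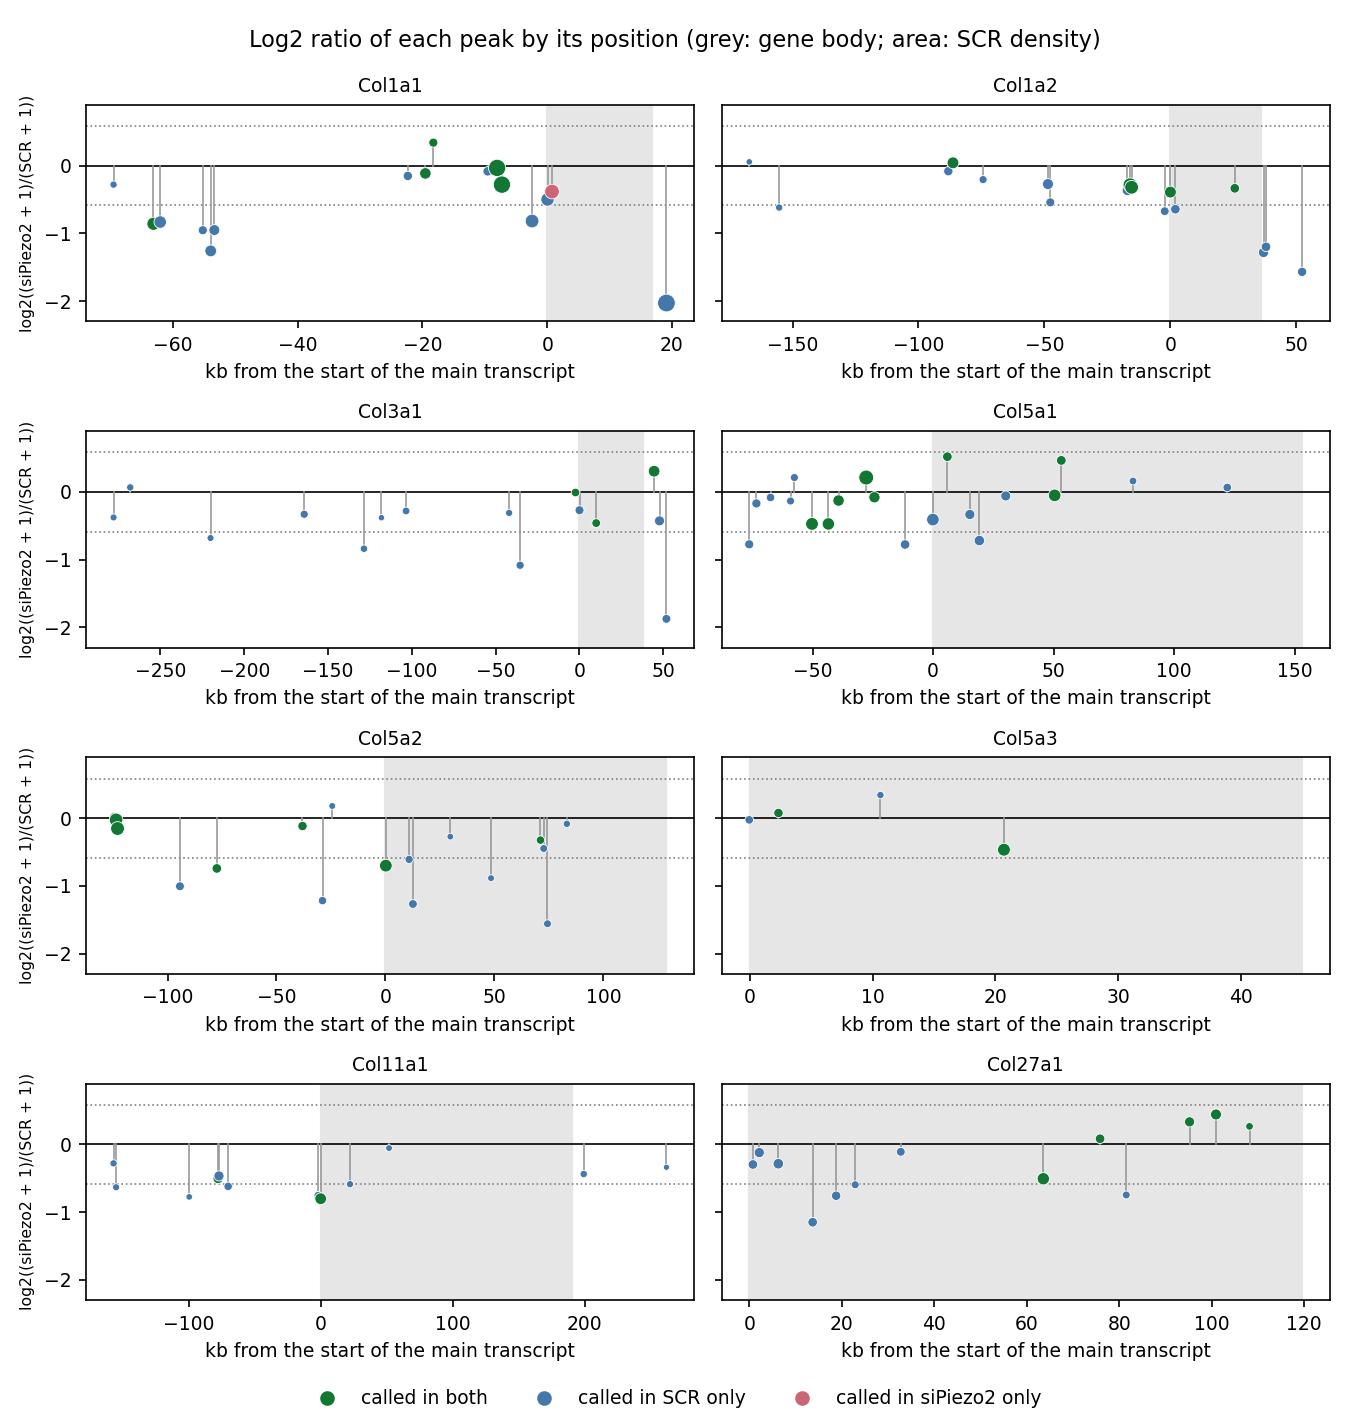
Each panel shows 1 gene, with the log2 ratio of each peak (y axis) against its distance in kb from the start of the main transcript (x axis). The gene body is shaded, dotted lines mark 1.5-fold, point area follows the SCR density and colour shows in which library the peak was called. The peaks past the 3′ ends of Col1a1 and Col1a2 reach -2.03 and -1.57, all 12 peaks of Col11a1 lie below 0, and those of Col5a1 lie on both sides of it.

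Of the 11 member peaks within 1 kb of a TSS, 11 had ratios below 0, between -0.80 and -0.025, where 55.5% of all such peaks were below 0. Those of Col1a2, Col5a2 and Col11a1 were called in both libraries, the first-intron peak of Col1a1 in siPiezo2 only and the others in SCR only. Of all peaks called in SCR only 73.1% were below 0, against 49.7% of those called in both. The intervals of the peaks nearest to the starts of Col1a2, Col3a1, Col5a1, Col5a3 and Col27a1 included 0, and the shift of median-of-ratios scaling turned the value at Col5a3 above it. Past 1.5-fold, 3 of the 11 were lower past 1.5-fold (27.3%), where 6.91% of all 14801 such peaks were. Their median was -0.39, against -0.042 for all peaks within 1 kb of a TSS, and they summed to 466 in SCR and to 337 in siPiezo2, a ratio of -0.47 (-0.64 to -0.32 from separate windows, where it was -0.48). In SCR the peaks over the starts of Col1a1, Col5a2 and Col5a1 were the most open, at 58.7, 53.2 and 52.1, followed by Col1a2 and Col11a1 at 45.9 and 45.3, while those of Col3a1 and Col5a3 had 26.5 and 23.996. No peak lay over the start of Col27a1. In siPiezo2 they ran from 21.8 at Col3a1 to 41.2 at Col1a1.

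Peaks in or at the genes and intergenic peaks gave like values. Of the 46 peaks in or at the genes, 14 were lower past 1.5-fold (30.4%), against 12.8% of all such peaks, with a median of -0.33 against -0.12. Of the 68 intergenic peaks, 24 were (35.3%), against 17.3%, with a median of -0.35 against -0.18. Split by side, 19 of the 59 upstream intergenic peaks were (32.2%, against 17.5%), with a median of -0.31. Of the 9 downstream ones, 5 were (55.6%, against 17.1%), with a median of -1.20 against -0.17 for all downstream intergenic peaks. The 5 belong to Col1a1 (1), Col1a2 (3) and Col3a1 (1), and the 2 downstream peaks of Col11a1 are not among them. All 5 were called in SCR only, as were 8 of the 9, and the 1 downstream peak called in both libraries, that of Col3a1, had a ratio of 0.31. The 9 summed to 329.7 in SCR and to 168 in siPiezo2 (ratio -0.97), but 2 of the 9 windows overlap and the peaks come from only 4 genes.

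The values moved with the peak call. Of the 114 peaks, 77 were called in SCR only (67.5%, against 64.0% of all peaks), 36 in both (31.6%, against 33.8%) and 1 in siPiezo2 only (0.88%, against 2.16%). A peak called in SCR alone tends to have the higher density there through the call itself, and 34 of the 77 were lower past 1.5-fold (44.2%), against 19.1% of all peaks so called, with a median of -0.44 against -0.23. Of the 36 called in both, 4 were (11.1%), against 5.79%, with a median of -0.12 against 0.0025. The 4 were the far upstream peak of Col1a1 63.1 kb before its TSS, the TSS peaks of Col5a2 and Col11a1, and the Col5a2 peak 77.4 kb before its TSS. Over peaks called in both libraries alone, the summed ratios of Col27a1, Col3a1 and Col5a1 no longer lay below 0, and that of Col1a1 was -0.20, closer to 0 than those of Col11a1 (-0.68), Col5a2 (-0.30), Col1a2 (-0.25) and Col5a3 (-0.25). The siPiezo2 library held 0.597 times the reads of SCR, and the part that its depth had in the peak calls was not tested.

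**Figure D4:**
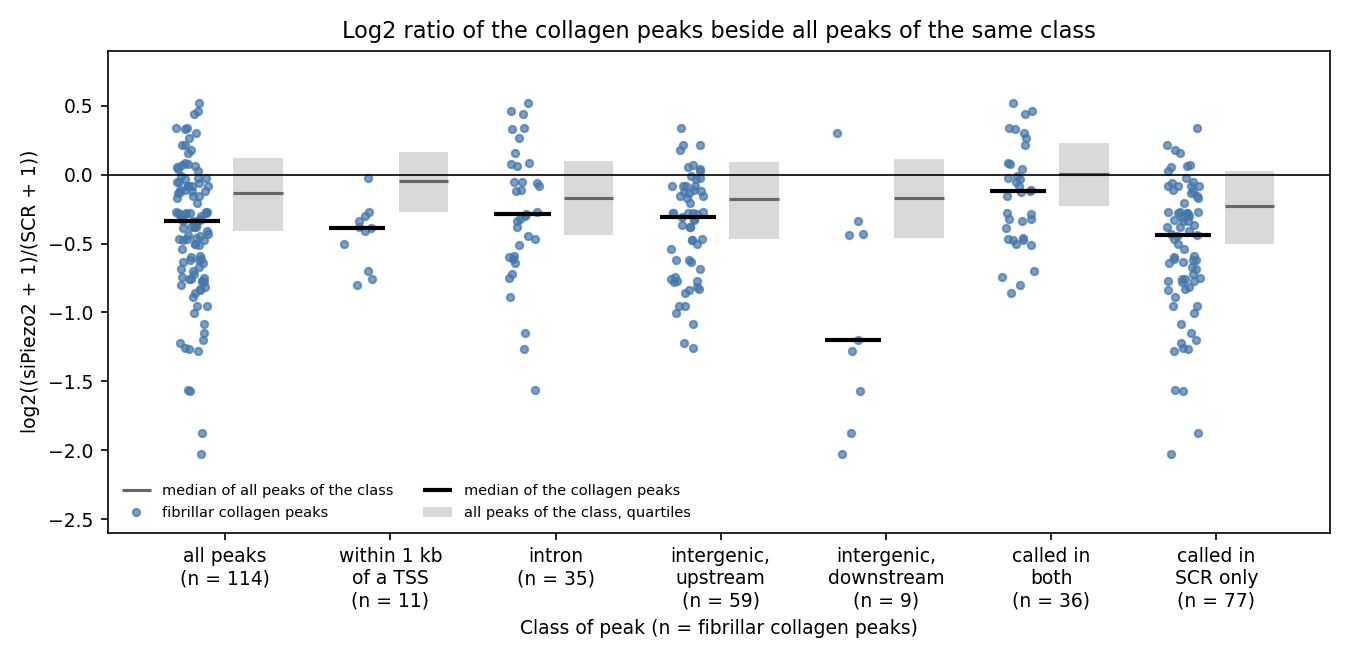
Points are the log2 ratios of the collagen peaks in each class, with their median as a black bar, and the grey boxes and lines are the quartiles and median of all peaks of that class. The collagen medians lie under those of all peaks in each of the 7 classes shown, by most in the downstream intergenic class (-1.20 against -0.17), where 8 of the 9 peaks were called in SCR only, and by least in introns (-0.29 against -0.17) and in peaks called in both (-0.12 against 0.0025).

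The remaining genes of the collagen pathway were taken from lists, each gene with the density summed over its own peaks. The list of other fibrillar collagens held Col2a1 and Col24a1, with ratios of -0.18 and -0.16 and intervals that included 0, and Col11a2 had no peak. Of 33 non-fibrillar collagens 31 had a peak. Their median was -0.12, near the -0.11 of all genes, and 9 had an interval below 0 and 0 above it, where 18.0% and 4.17% of all genes did. Among genes with 10 or more peaks, 53.2% had an interval below 0. The lowest were Col8a2 (-0.75) of type VIII collagen, Col4a4 (-0.63) of basement membranes and the fibril-associated Col20a1 (-0.61). The highest with at least 100 reads were Col6a5 (0.18), Col9a1 (0.17) and Col6a6 (0.15). The median of the 8 fibrillar genes was -0.40, and it was -0.23 over peaks called in both libraries, -0.23 with whole reads at the same total, -0.25 in the strongest 50% of peaks and -0.26 with median-of-ratios scaling. The medians of the other lists were not recomputed under these settings.

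For synthesis and folding, 19 of 21 genes had a peak, with a median of -0.14, 5 intervals below 0 (18.0% of all genes, and 53.2% of those with 10 or more peaks) and 0 above it (4.17% of all genes). P4ha3, a subunit of the prolyl hydroxylase that stabilizes the helix, had 203 in SCR and 126 in siPiezo2 (ratio -0.68, -0.93 to -0.44). It was followed by the galactosyltransferase gene Colgalt2 (-0.56) and by Plod2 (-0.31), whose lysyl hydroxylase prepares chains for crosslinking. At the other end were Mia3 (0.22), which serves the export of procollagen, Ppib (0.17), a prolyl isomerase, and P4hb (0.15), the partner subunit of the prolyl hydroxylase. The median of this list lay near that of all genes.

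The list for end-piece removal, crosslinking and fibril assembly held the widest values. All 24 genes had a peak, with a median of -0.27, 11 intervals below 0 (18.0% of all genes, and 53.2% of those with 10 or more peaks) and 4 above it (4.17% of all genes). Thbs1, which encodes a matricellular thrombospondin, had 446 in SCR and 184 in siPiezo2, a ratio of -1.28 (-1.47 to -1.08). Lox, the lysyl oxidase that crosslinks collagen, had 189 and 90.2 (-1.06), and Fn1, the fibronectin on which fibrils are laid down, had 268 and 147 (-0.87). Loxl2, another lysyl oxidase, had 86.7 and 145 (0.74, 0.46 to 1.01), the matrix protein gene Tnxb had 192 and 254 (0.40), and the procollagen protease gene Adamts14 had 193 and 238 (0.30). Members of the same enzyme family thus had ratios on opposite sides of 0.

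All 8 receptor genes had a peak, with a median of -0.30, 5 intervals below 0 (18.0% of all genes, and 53.2% of those with 10 or more peaks) and 1 above it (4.17% of all genes). Itgb1, the β subunit shared by the collagen-binding integrins, had 474 in SCR and 342 in siPiezo2 (-0.47, -0.62 to -0.32). Its partner Itga11 (-0.47) and the collagen uptake receptor gene Mrc2 (-0.41) had like values. Itga10 (0.46), Ddr2 (-0.013), the receptor kinase of fibroblasts, and Itga2 (-0.048) were the highest. No replicate spread exists against which to set the differences between lists.

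**Figure D5:**
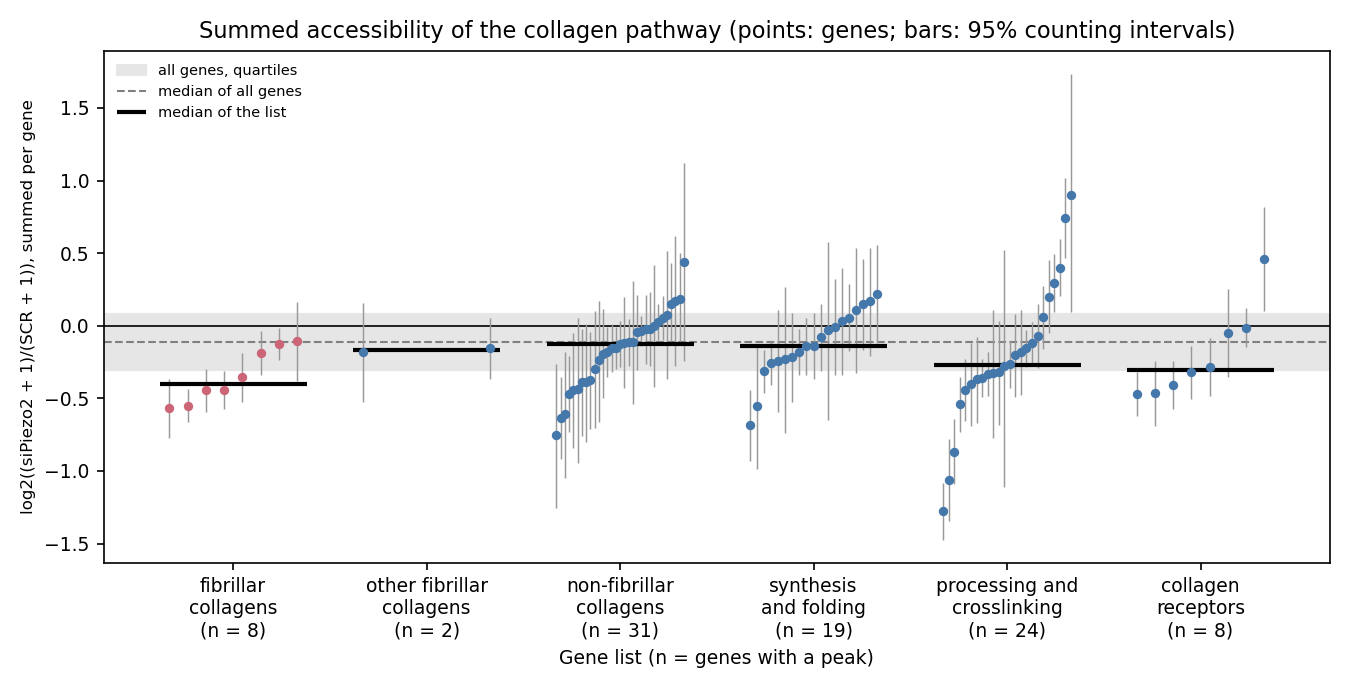
Points are genes, with the log2 ratio of the density summed over each gene's peaks and its 95% counting interval, ordered within each list, and black bars are the medians of the lists. The fibrillar collagens have a median of -0.40 and lie between -0.57 and -0.11, while the processing and crosslinking genes run from -1.28 at Thbs1 to 0.90 at Pcolce2, which has 1 weak peak; the shaded band and dashed line are the quartiles and median of all genes. Median-of-ratios scaling would raise every point by 0.14.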

How the data were processed

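The deposited table lists peaks with a signal column for each library. The authors had normalized these read densities by regressing log2 ratios linearly on mean log2 densities. The submitters' processing notes name BWA 0.7.12, and the methods name Picard and MACS2. The table's log2 ratio and p-value columns are the authors' own comparison and were not used. The fit was undone by requiring whole reads in both libraries, which held for 100% of peaks within 0.05 reads, and 1 read per window, added before such fits, was taken off, which the table cannot check. A pseudocount of 1 was used. Named peaks were those within 1 kb of a TSS, the strongest, and the lowest and highest ratio among the strongest 50% of all peaks, and named list genes were the 3 lowest and 3 highest with at least 100 reads. Other peaks given with values were chosen after these were seen. The members and lists were chosen with earlier results of these data known. Software comprised scipy 1.17.1, pandas 2.3.3 and numpy 2.4.6 under Python 3.11.15, with plots by matplotlib 3.10.9.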

Additional observations from a re-analysis of the deposited data

How the results depend on the processing

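The median ratio of the member peaks (-0.34) and the number of them lower (38) or higher (0) past 1.5-fold depended on the scaling and on which peaks were kept. With median-of-ratios scaling the median was -0.21, with 28 lower (8.84% of all peaks) and 2 higher (6.27%), where the median of all peaks moved to 0. With both libraries at the same total density it was -0.25 (all peaks -0.050), with 31 lower (10.5%) and 1 higher (4.90%), and with whole reads at the same total -0.21 (all peaks 0.021), with 26 lower (8.21%) and 2 higher (8.35%). Over peaks called in both libraries the median was -0.12 (all peaks so called 0.0025), with 4 lower (5.79%) and 0 higher (4.41%). The lower count was 14 of 46 without intergenic peaks (12.8% of all peaks so kept), 12 of 61 in the strongest 50% (12.2%) and 12 of 114 at a threshold of 2-fold (2.76%). Of 91 ratios recomputed under an alternative, 84 stayed below 0 and 7 came out above it, and the cause was not tested. These were Col5a1 with median-of-ratios scaling (0.015), Col5a1 (3.22e-05), Col27a1 (0.12) and Col3a1 (0.052) over peaks called in both, and Col5a3, whose main interval includes 0, with median-of-ratios scaling (0.031), with whole reads (0.0063) and without its lowest peak (0.12). The median-of-ratios scaling also changed the split of all peaks past 1.5-fold, from 9000 lower and 2032 higher to 5594 and 3972. Widened intervals and leaving out the lowest peak of each gene were chosen after the data were seen. No paired analysis was possible because each condition had 1 library and no replicates. The counting interval of a member peak reached 0.63 to either side on the log2 scale at the median, and it was narrower at deeper peaks.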

Other observations

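Some peaks near the fibrillar collagen genes are given by the table to other genes and entered no sum. Inside Col5a1, 2.46 kb from its TSS, a peak given to 2810430I11Rik had 57.8 in SCR and 67.0 in siPiezo2 (normalized reads per kb), a ratio of 0.21 (-0.17 to 0.58). Past the 3′ end of Col5a3, 9.05 kb beyond the gene, a peak given to Olfm2 had 60.6 and 62.3 (ratio 0.041). Past the 3′ end of Col1a2, 46.6 kb beyond the gene, a peak given to Casd1 had 26.1 and 14.9, a ratio of -0.77 (-1.52 to -0.069). Past that of Col27a1, 33.8 kb beyond the gene, a peak given to Akna had 27.1 and 24.3 (ratio -0.15).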
